A study of Mus musculus with 18 samples.

Results

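Calorie restriction on a high-fat diet was examined in mouse liver by small RNA sequencing, as 3 libraries from mice on the HF diet with CR (HF+CR) set against 3 libraries from mice on the HF diet alone (HF). Of 758 mouse miRNAs listed in the deposited tables, 351 reached 5 RPM (reads of a miRNA scaled by the authors to a common library total) in 3 or more of the 18 libraries of the series, and all 351 were compared. All mice were wild-type C57BL/6J, began their regimen at an age of 5 weeks, and liver was taken at 62 weeks. HF, LF, CR and Ex are read here as high-fat diet, low-fat diet, calorie restriction and exercise. The sources used here do not give the degree of restriction or the composition of the diets. The groups LF+CR and LF served to compare the effect of CR between the diets. They also held 3 libraries each, of the same strain and age. The exercise groups entered no comparison of their own. They contributed to the filter at 5 RPM, the shared estimate of spread and an alternative scaling of the libraries, and their means are given for miR-1948-3p. Nothing in the labels states that each library is a different animal, and p-values therefore measure the spread between these libraries, which may be partly technical.

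MicroRNAs are short RNAs that guide Argonaute proteins to partly complementary sites in messenger RNAs and thereby lower their stability and translation, with the bases near the 5′ end, the seed, deciding most of the targets. Each hairpin precursor can give a 5p and a 3p mature arm, and many miRNAs lie in introns of protein-coding genes or in clusters transcribed as one unit. In hepatocytes, miR-122 is the most characteristic miRNA and acts in cholesterol and fatty acid metabolism, and miR-103, miR-107, miR-378a and miR-802 have been linked to insulin action or energy metabolism in mice.

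RefSeq on the GRCm38 build held a mature sequence for 288 of the 351 miRNAs. The first set holds miR-802-3p and families whose members shown here had log2 fold changes below 0 in HF+CR relative to HF, and capitals mark the seed, bases 2 to 8 counted from the 5′ end.
miR-107-3p: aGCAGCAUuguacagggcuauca
miR-103-3p: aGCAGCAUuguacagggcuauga
miR-148b-3p: uCAGUGCAucacagaacuuugu
miR-152-3p: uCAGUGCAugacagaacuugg
miR-148a-3p: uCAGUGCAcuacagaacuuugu
miR-378b: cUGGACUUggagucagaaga
miR-378c: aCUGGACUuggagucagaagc
miR-192-5p: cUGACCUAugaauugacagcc
miR-215-5p: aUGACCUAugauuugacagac
miR-802-3p: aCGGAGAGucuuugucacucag
The mature forms of miR-107-3p and miR-103-3p differ at 1 base, C22G, and those of miR-148b-3p and miR-152-3p at 2 bases, G10C and G20U read from miR-152-3p to miR-148b-3p. The first 19 bases of miR-378b are the bases of miR-378c from position 2 onward, so that their seeds are offset by 1 base. Reads of such near-identical forms can be split between the names, and the split between members is therefore uncertain. miR-107 lies on the minus strand at chr19:34820700-34820722 in an intron of Pank1, and miR-103 has a copy at chr2:131288103-131288125 in an intron of Pank2 and another at chr11:35782447-35782469 in an intron of Pank3, genes for pantothenate kinases of coenzyme A synthesis. miR-148b lies at chr15:103285185-103285206 in an intron of Copz1 and miR-152 at chr11:96850439-96850459 in an intron of Copz2, a pair of coatomer subunit genes. miR-378b lies at chr11:88352839-88352858 and miR-378c at chr14:46954905-46954925, within introns of Msi2 and Samd4 but on the opposite strand.

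The second set holds miRNAs with log2 fold changes above 0 in HF+CR relative to HF that did not pass, members of 1 seed family that differed among themselves, and a miRNA whose response to CR differed between the diets.
miR-592-5p: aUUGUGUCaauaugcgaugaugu
miR-1247-5p: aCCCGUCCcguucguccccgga
miR-127-3p: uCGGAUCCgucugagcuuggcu
miR-136-5p: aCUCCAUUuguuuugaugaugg
miR-411-5p: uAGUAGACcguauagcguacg
miR-92a-3p: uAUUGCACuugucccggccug
miR-25-3p: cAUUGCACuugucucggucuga
miR-32-5p: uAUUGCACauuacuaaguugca
miR-671-5p: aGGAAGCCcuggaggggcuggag
miR-592 lies on the minus strand at chr6:27936711-27936733 in an annotated exon of Grm8, and miR-671 at chr5:24592132-24592154 in an annotated exon of Chpf2. miR-127 at chr12:109592888-109592909, miR-136 at chr12:109595331-109595352 and miR-411 at chr12:109710190-109710210 belong to the imprinted Dlk1-Dio3 region, where miR-127 and miR-136 run antisense to Rtl1. miR-1247 lies further along the same chromosome, at chr12:110278094-110278115 in an exon of Dio3os. miR-92a-3p has a copy in Mir17hg at chr14:115044476-115044496 and another at chrX:52741854-52741874.

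Read depth implied by the RPM values was 3.46, 5.50 and 2.90 M reads in HF+CR libraries 1 to 3, against 6.36, 4.05 and 6.28 M reads in HF libraries 1 to 3, within a range of 2.38 to 10.5 M reads over the series. Pearson correlations of log2(RPM + 1) were 0.953 to 0.9747 between HF+CR libraries and 0.986 to 0.993 between HF libraries, so the HF+CR libraries were less alike. HF+CR 3 stood furthest apart within its group, and results that rest on it are given with and without it. The libraries had the makeup of liver: miR-122-5p took 26.4% ± 3.55 of listed RPM in HF+CR and 23.0% ± 1.88 in HF (SD, n = 3 each), and the 15 most abundant miRNAs took 73.1% ± 2.44 in HF+CR and 71.3% ± 2.21 in HF. The precision of the comparison is limited by 3 libraries a group: an exact permutation test of 3 against 3 cannot go below p = 0.10.

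No miRNA passed the test between HF+CR and HF. Differences were fitted on log2(RPM + 1) with limma over all 18 libraries, with Benjamini-Hochberg adjustment over the 351 miRNAs and a threshold of 0.05, and the smallest adjusted p was 0.127. Of the 351, 6 repeat the values of another entry in every library. At an unadjusted p under 0.05 the fit held 53 miRNAs, which is 15.1% of those tested, with 20 higher (5.7%) and 33 lower (9.4%) in HF+CR. A fit with voom weights, taken from implied read numbers and chosen after seeing the data, called none either and held 48 at an unadjusted p under 0.05. In 51 miRNAs (14.5%) the values of the groups did not overlap, 18 with HF+CR above (5.13%) and 33 with HF+CR below (9.4%). The median log2 fold change was -0.05 and 43.3% of the 351 miRNAs lay above 0. The fold changes ranged between -2.78 and 2.26 with a median standard error of 0.28, and 36 exceeded 1 in size, 25 above 0 and 11 below. For 210 miRNAs (59.8%) the 95% interval lay wholly between -1 and 1, so that a change of more than 1 log2 unit lies outside the interval for these, while the intervals of the others reach beyond it.

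**Figure D1:**
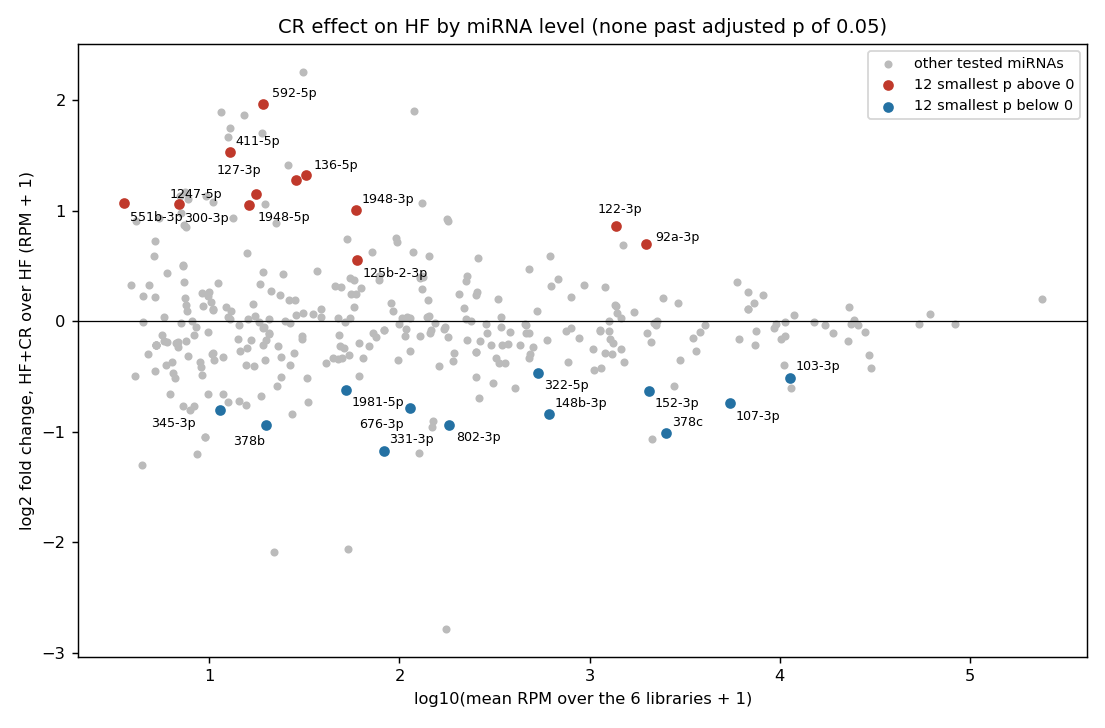
Log2 fold change of HF+CR over HF (RPM + 1, vertical) against the log10 mean RPM of the 6 libraries plus 1 (horizontal), 1 point for each of 351 miRNAs. The 12 smallest p above 0 (red) mostly sit at low levels and the 12 below 0 (blue) reach into the abundant miRNAs; none passed an adjusted p of 0.05.

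Among the miRNAs below 0, the smallest p belonged to miR-107-3p, miR-378b, miR-1981-5p and miR-378c, and miR-103-3p, the seed partner of miR-107-3p, was among the 12 smallest. miR-107-3p, which lowers insulin sensitivity when raised in mouse liver, was at 3872, 5289 and 3154 RPM in HF+CR, against 5313, 7946 and 7189.6 RPM in HF. All 3 HF+CR libraries lay below all 3 HF libraries, though HF+CR 2 came close to HF 1. The log2 fold change was -0.74 (SE 0.19) and did not pass (limma adjusted p = 0.127); it passed without HF 1 (limma adjusted p = 0.0448) and without HF+CR 2 (0.0353). Without the 3 shallowest libraries, which leaves HF+CR 2 alone in its group, the value was -0.35 for miR-107-3p and -0.25 for miR-103-3p. miR-103-3p, with the same seed, was at 8396, 10991 and 8377 RPM under HF+CR and 9744, 17184 and 13355 RPM under HF, where HF+CR 2 overlapped HF 1 (-0.51, SE 0.17, limma adjusted p = 0.154). It passed only without HF 1 (limma adjusted p = 0.0448), among the 6 fits that each left out 1 library of the pair of groups. On the LF diet both were below 0 as well, at -0.45 and -0.47 in LF+CR over LF, without passing (limma adjusted p = 0.129 and 0.0983).

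In the miR-378 family 4 of 4 tested members lay below 0, with a median log2 fold change of -0.77 beside -0.05 over all tested miRNAs; a further member, miR-378d, was listed at no more than 0.714 RPM in these 6 libraries and was not tested. miR-378b was at 9.25, 14.6 and 14.4 RPM in HF+CR, against 24.3, 26.2 and 24.05 RPM in HF. The HF libraries lay close together and stood clear of all 3 HF+CR libraries (-0.94, SE 0.24, limma adjusted p = 0.128). miR-378c was at 1178, 2034 and 1830.0 RPM in HF+CR, against 2428, 4334 and 3415 RPM in HF, again without overlap (-1.01, SE 0.28, limma adjusted p = 0.14). The abundant arm miR-378a-3p, made from an intron of the coactivator gene Ppargc1b and linked to mitochondrial fuel use in mice, was at 7667, 9953 and 9278 RPM under HF+CR and 9950.2, 18363 and 13504 RPM under HF. HF+CR 2 just exceeded HF 1, so the groups overlapped (-0.60, SE 0.24, unadjusted p = 0.0233 and adjusted p = 0.247 by limma). The 5p arm of the same hairpin was at -0.21 (SE 0.20). The family median stayed between -0.89 and -0.60 when any 1 of the 6 libraries was left out, and was -0.57 without the 3 shallowest libraries. As bulk liver was sequenced, fewer cells of a type and less RNA per cell cannot be told apart, here or in the results that follow.

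The family of miR-148 and miR-152, whose members target the DNA methyltransferase Dnmt1 and, for miR-148a, the LDL receptor, had 5 of 6 tested arms below 0 with a median of -0.51, or 4 of 6 with size-factor rescaling; the median was -0.34 without HF 2. miR-148b-3p was at 473, 325 and 528 RPM in HF+CR, against 682, 811 and 841 RPM in HF. The highest HF+CR library lay below the lowest HF library (-0.84, SE 0.26, limma adjusted p = 0.14). miR-152-3p was at 1116, 1868 and 1924 RPM under HF+CR and 2256, 2643 and 2489 RPM under HF, also without overlap (-0.63, SE 0.20, limma adjusted p = 0.154), and its value was -0.37 without HF+CR 1. The dominant family member miR-148a-3p did not follow them: it was at 26814, 20543 and 23277 RPM in HF+CR, against 28463, 20913 and 22733 RPM in HF, with interleaved libraries and a log2 fold change of -0.03 (SE 0.22, 95% interval -0.48 to 0.43). The family summed to 28510, 22840 and 25880 RPM in HF+CR, against 31500, 24530 and 26180 RPM in HF. On the LF diet miR-148b-3p fell with CR (-1.01, SE 0.26, limma adjusted p = 0.0289), and the difference between the diets was 0.17 (SE 0.36) and did not pass (limma adjusted p = 0.827).

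**Figure D2:**
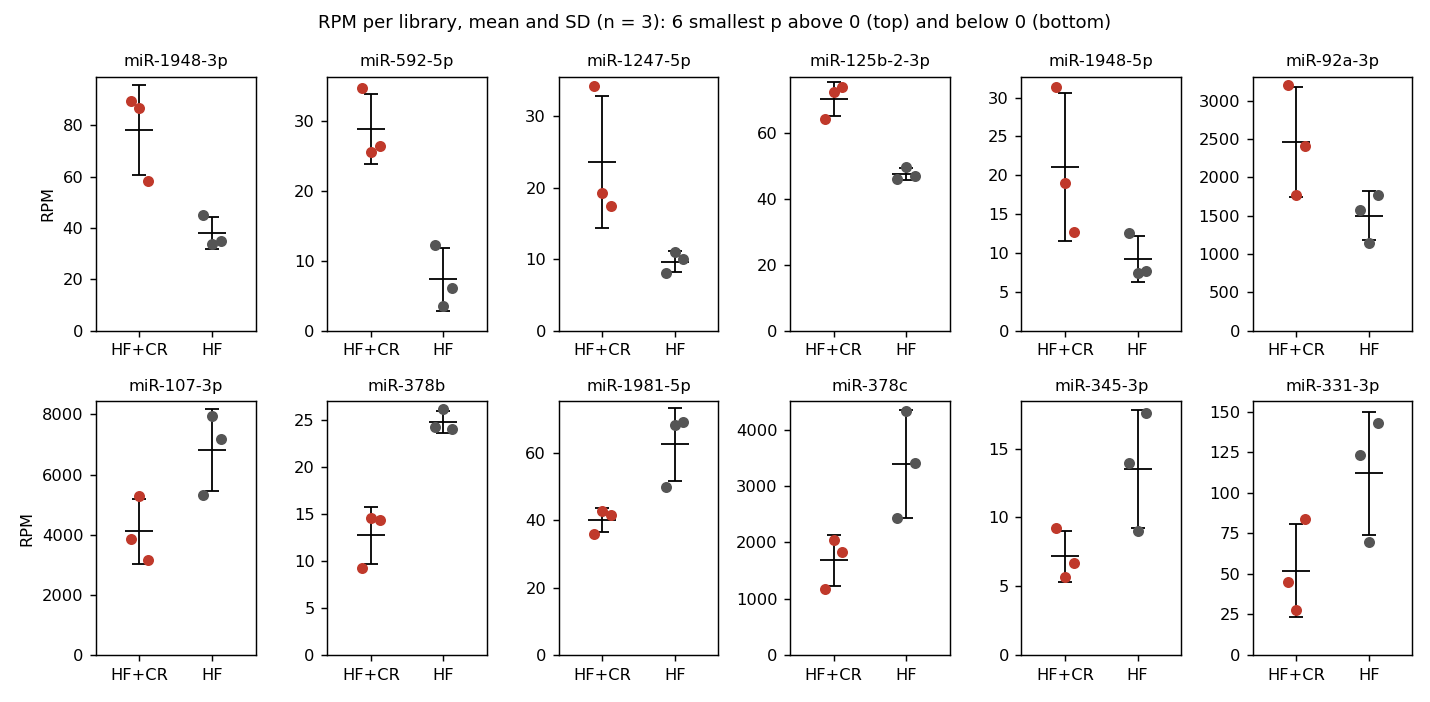
RPM in each library for the 6 smallest p above 0 (top) and the 6 below 0 (bottom), with HF+CR in red and HF in grey; the long bar is the mean and the whiskers the SD (n = 3), and every vertical axis starts at 0. The groups are apart in miR-1948-3p, miR-592-5p, miR-378b and miR-1981-5p, among others, and overlap in miR-345-3p and miR-331-3p.

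The hepatocyte list went both ways and none of its members passed (limma): 4 of 7 tested members lay below 0 and 3 above, with a median of -0.02, or 2 below and 5 above with size-factor rescaling. The highest was miR-122-3p at 0.86, followed by miR-122-5p at 0.20 and miR-101b-3p at 0.01. miR-802, which is raised in the liver of obese mice and impairs glucose tolerance there, had both arms below 0. miR-802-3p was at 97.5, 115 and 157 RPM under HF+CR and 167, 249 and 302 RPM under HF (-0.94, SE 0.29, limma adjusted p = 0.14). The main arm miR-802-5p was at 1770.1, 2504 and 2357 RPM in HF+CR, against 2911, 2915 and 4166 RPM in HF (-0.59, SE 0.25, limma adjusted p = 0.298). In both arms every HF+CR library lay below every HF library. The LF diet gave values of the other sign, 0.33 and 0.21, and the differences between the diets, -1.27 (SE 0.40) and -0.79 (SE 0.36), did not pass (limma adjusted p = 0.191 and 0.347). In the clusters of miR-192 and miR-194, 5 of 5 tested members lay below 0 (median -0.23), but 4 of 5 did with size-factor rescaling and 3 of 5 without HF+CR 3 (median -0.03) or without HF 3 (median -0.16), and the median was -0.43 without HF+CR 1. miR-192-5p was at 25940.2, 32283 and 20481 RPM under HF+CR and 34422, 35114 and 34290.0 RPM under HF, without overlap and with a narrow HF range (-0.42, SE 0.15, limma adjusted p = 0.179). Its seed partner miR-215-5p was at 8.13, 7.23 and 17.7 RPM in HF+CR, against 18.1, 22.6 and 14.2 RPM in HF, with HF+CR 3 inside the HF range (-0.76, SE 0.35). miR-194-5p, made from the same transcripts as miR-192 and miR-215, was level at -0.02 (SE 0.15, 95% interval -0.34 to 0.29).

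The other miRNAs with the smallest p below 0 have less settled roles in liver. miR-1981-5p, from an intron of Marc2, was at 35.9, 42.7 and 41.4 RPM under HF+CR and 49.98, 68.3 and 69.2 RPM under HF, without overlap (-0.62, SE 0.17, limma adjusted p = 0.14). miR-676-3p, from an intron of Eda on the X chromosome, was at 86.6, 68.6 and 90.6 RPM in HF+CR, against 126, 179.9 and 123 RPM in HF, and its other arm lay on the same side (-0.79 for 3p and -0.73 for 5p). Neither arm overlapped between the groups, and neither passed (limma adjusted p = 0.14 and 0.159). miR-322-5p, which shares the seed of the miR-15 and miR-16 family, was at 384, 453 and 520.4 RPM under HF+CR and 553, 669 and 644 RPM under HF (-0.47, SE 0.15). It belongs to the X-linked cluster of miR-322, miR-503 and miR-450. In the list used for this cluster, 7 of 8 tested members lay below 0 with a median of -0.28, or 6 of 8 with size-factor rescaling. The list median was -0.12 without HF+CR 1 and -0.18 without HF 2, with 6 of 8 below 0 in each. miR-450b-3p, tested but not in that list, was at 0.25. miR-345-3p and miR-331-3p were at -0.81 and -1.17, with overlapping groups. The more abundant arm miR-345-5p, with a mean of 88.5 RPM in HF+CR beside 7.19 RPM for miR-345-3p, lay above 0 at 0.38. For miR-331-3p HF+CR 3 lay at 83.6 RPM, inside the HF range of 69.5 to 143 RPM.

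Above 0, miR-1948-3p, miR-592-5p and miR-1247-5p had the smallest p. miR-592-5p was at 34.7, 25.6 and 26.4 RPM in HF+CR, against 12.3, 3.57 and 6.17 RPM in HF. The lowest HF+CR library stood well above the highest HF library (1.97, SE 0.49, 95% interval 0.93 to 3.01, limma adjusted p = 0.127). It passed without HF 1 (limma adjusted p = 0.0448) and without HF+CR 3 (0.0471). miR-1247-5p was at 34.2, 19.2 and 17.4 RPM under HF+CR and 8.05, 10.9 and 10.02 RPM under HF (1.15, SE 0.34, limma adjusted p = 0.14). miR-125b-2-3p, the minor arm of a miR-125b hairpin, was at 64.4, 72.6 and 74.2 RPM in HF+CR, against 46.2, 49.7 and 47.2 RPM in HF, with little spread in either group (0.55, SE 0.17, limma adjusted p = 0.14). The groups were apart for all of these miRNAs, as they were for both arms of miR-1948, described below. miR-551b-3p, at 6.16, 3.17 and 2.34 RPM under HF+CR and 1.67, 0.952 and 1.08 RPM under HF, rests on few reads.

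miR-92a-3p, a product of the oncogenic miR-17-92 cluster, was at 3206, 1766 and 2415 RPM in HF+CR, against 1579, 1145 and 1771 RPM in HF. HF+CR 2 lay just under HF 3, so the groups overlapped (0.70, SE 0.23, limma adjusted p = 0.154). All 7 tested members of the list used for the cluster lay above 0, but 5 of 7 did without HF 3. The others in the list were above by less: the list median was 0.17, or 0.08 without the 3 shallowest libraries. Among them, miR-17-5p was at 0.03 and miR-19b-3p at 0.17. Tested but not in the list, miR-20a-3p and miR-92a-1-5p of the same cluster were at 0.62 and 0.27. Of the miRNAs that share the miR-92a seed, miR-25-3p was at 0.38 (SE 0.40) and miR-32-5p at -0.09 (SE 0.25). miR-122-3p, the minor arm of the hepatocyte miRNA miR-122, was at 2625, 1808 and 982 RPM under HF+CR and 1209, 684 and 933 RPM under HF. HF+CR 3 lay inside the HF range, and the difference did not pass (0.86, SE 0.36, limma adjusted p = 0.278). The main arm miR-122-5p was at 268712, 282043 and 216952 RPM in HF+CR, against 236519, 201007 and 227759 RPM in HF (0.20, SE 0.13).

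The imprinted Dlk1-Dio3 cluster, a large group of maternally expressed miRNAs that is mostly silent in adult liver, had 46 listed members of which 13 passed the level filter. All 13 tested members lay above 0, with a median log2 fold change of 1.05, and none passed; 2 did not overlap between the groups, beside 5.13% with HF+CR above over all tested miRNAs. miR-127-3p was at 44.6, 21.7 and 52.1 RPM under HF+CR and 20.1, 8.33 and 18.5 RPM under HF (1.28, SE 0.44, limma adjusted p = 0.172). miR-136-5p was at 75.9, 23.3 and 39.4 RPM in HF+CR, against 17.6, 12.1 and 18.7 RPM in HF (1.32, SE 0.47, limma adjusted p = 0.183). For this pair every HF+CR library exceeded every HF library. miR-411-5p was at 17.1, 7.58 and 29.4 RPM under HF+CR and 10.5, 2.62 and 3.70 RPM under HF, and miR-300-3p at 9.53, 3.70 and 12.4 RPM in HF+CR, against 4.41, 2.86 and 2.47 RPM in HF, both with HF+CR 2 inside the HF range. The 46 listed members summed to 287, 105 and 310 RPM in HF+CR libraries 1 to 3, against 142, 55.7 and 87.4 RPM in HF libraries 1 to 3. HF+CR 2 thus lay within the HF range and the other HF+CR libraries above it. The tested median was 0.72 without HF+CR 3 (12 of 13 above 0), 0.73 without HF 2 and 1.51 without HF+CR 2, and it was 0.17 with 8 of 13 above 0 without the 3 shallowest libraries, which leaves HF+CR 2 alone in its group. Marker miRNAs of other tissues were also uneven in these libraries, as given below, and their part in the cluster's values was not tested.

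**Figure D3:**
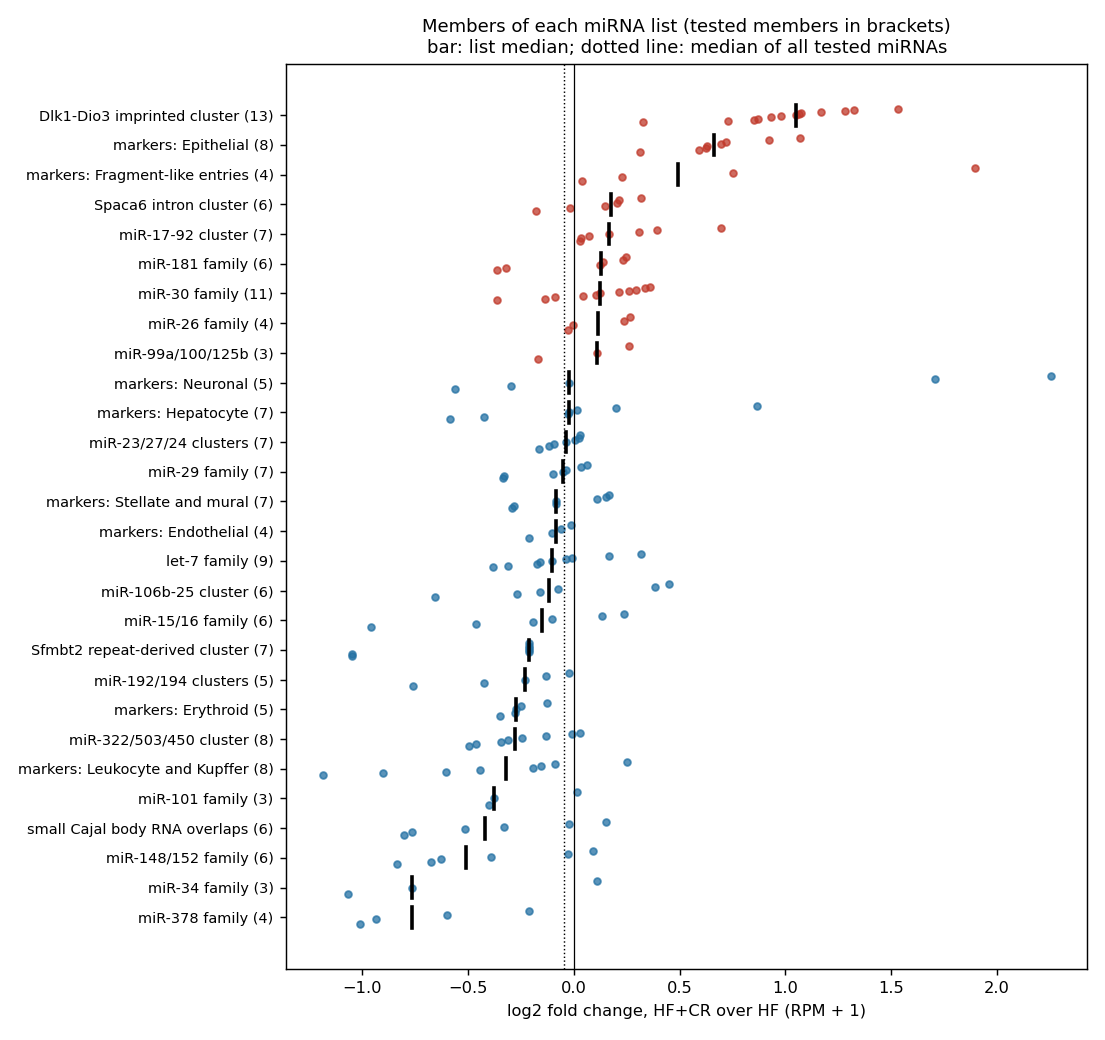
Log2 fold change of HF+CR over HF (RPM + 1, horizontal) for each tested member of the family, cluster and marker lists. Lists have at least 3 tested members (number in brackets), with the list median as a black bar. The median of all tested miRNAs, -0.05, is the dotted line. The Dlk1-Dio3 cluster lies farthest to the right, at a median of 1.05, and the miR-378 family farthest to the left, at -0.77; no member of any list passed.

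The bulk of the miRNA pool was close to level. Of the 15 most abundant miRNAs none passed (limma), and the fold changes lay between -0.42 for miR-192-5p and 0.20 for miR-122-5p. let-7f-5p was at 25064, 25208 and 29136 RPM under HF+CR and 33376, 32436 and 32356 RPM under HF, without overlap (-0.31, SE 0.12, limma adjusted p = 0.239). The let-7 family as a whole, regulators of growth and insulin signalling, had 7 of 9 tested members below 0, or 5 of 9 with size-factor rescaling, and a median of -0.10, which became 0.04 without HF+CR 2. miR-21a-5p, which rises in injured and proliferating liver, was at -0.02 (SE 0.24, 95% interval -0.54 to 0.49), and miR-29a-3p, which restrains collagen synthesis, at 0.06 (SE 0.13, 95% interval -0.20 to 0.33). In the miR-30 family 8 of 11 tested members lay above 0 with a median of 0.13. In a list of 21 tested miRNAs of lipid and sterol metabolism the median was -0.04 with 6 above 0, and in one of 25 of insulin and glucose metabolism -0.06 with 8 above 0. Rescaling the libraries by median-of-ratios size factors moved those counts to 11 of 21 and 12 of 25 above 0, since it shifts the median of all miRNAs by 0.06. miR-33-5p, made from an intron of Srebf2 and a repressor of the cholesterol exporter Abca1, was level on the HF diet (0.02, SE 0.26) and rose with CR on the LF diet (1.03, SE 0.26, limma adjusted p = 0.0289). The difference between the diets was -1.01 (SE 0.37) and did not pass (limma adjusted p = 0.231).

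Members of 1 seed family or 1 hairpin often, but not always, lay on the same side of 0. RefSeq sequences placed 91 of the tested miRNAs in 34 seed families of 2 or more members; all members were below 0 in 14 families, all above in 7, and 13 were mixed, where 199 of the 351 tested miRNAs lay below 0. Among miRNAs with a matched RefSeq sequence, 94 pairs of arms of 1 hairpin were tested. In 57 (60.6%) the arms had the same sign, 39 with both below 0 and 18 with both above. Pairs without a matched sequence, such as those of miR-122 and miR-1948, were left out. An arm shared between hairpins, such as miR-125b-5p, was counted with each. The arms of these pairs differed by a median of 0.22 in log2 fold change. The share of equal signs among unrelated miRNAs was not worked out. Arms and family members share a transcript or nearly the same sequence and are not independent measurements.

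Except for the endothelial and erythroid lists, every list of marker miRNAs described here had a wider range of summed RPM between HF+CR libraries than between HF libraries. The epithelial list (miR-200 family and the miR-183 cluster, 8 of 8 tested) summed to 1457, 1616 and 8424 RPM in HF+CR, against 1576, 1645 and 1784 RPM in HF. All 8 lay above 0 with a median of 0.66, but without HF+CR 3 only 4 of 8 did, with a median of 0.01. The median was 1.13 without HF+CR 1 and 1.01 without HF+CR 2. The leukocyte and Kupffer cell list (8 of 8 tested) summed to 5615, 3633 and 9761 RPM in HF+CR, against 6431, 8021 and 6276 RPM in HF, with 7 of 8 below 0 and a median of -0.32. Without HF+CR 3 that median was -0.996, and without HF+CR 2 it was 0.09, so the HF+CR libraries lay on both sides of HF. Pancreatic miRNAs (2 of 4 tested) summed to 138 RPM in HF+CR 1, against 5.11 and 6.35 RPM in HF+CR 2 and 3 and 3.57 to 6.01 RPM in HF. The muscle list (2 of 4 tested) summed to 58.3, 17.1 and 25.4 RPM in HF+CR, against 17.6, 5.24 and 23.3 RPM in HF. Neuronal markers (5 of 6 tested) had 2 members above 0 and 3 below, with a median of -0.02. Those above 0 were miR-124-3p, at 9.53, 163 and 1.34 RPM in HF+CR, against 2.58, 2.62 and 1.85 RPM in HF, and miR-9-5p. miR-9-5p was at 9.53, 78.1 and 5.35 RPM under HF+CR and 3.49, 3.09 and 7.25 RPM under HF. HF+CR 2 was far above the other 5 of these libraries in both. HF+CR 2 was also alone in its level of miR-741-3p, miR-880-3p and miR-881-3p, X-linked miRNAs best known from testis and named after their values were seen, at 66.4, 52.7 and 56.8 RPM, against no more than 5.68 RPM in the other 5 libraries. The hepatocyte list (7 of 8 listed, all 7 tested) summed to 407200, 439000 and 321000 RPM in HF+CR, against 375600, 341300 and 371300 RPM in HF, lowest in HF+CR 3. The endothelial list lay within 18260 to 18820 RPM in HF+CR, against 19080 to 20680 RPM in HF. The stellate and mural list was at 9965, 8872 and 18240 RPM in HF+CR, against 10750 to 11900 RPM in HF, and the erythroid list at 4545, 5905 and 2990 RPM in HF+CR, against 3561 to 6997 RPM in HF. A list of entries that may be fragments of other RNAs (4 of 8 tested), led by miR-690 at 299.6, 111 and 134 RPM in HF+CR, against 22.03, 110.4 and 33.1 RPM in HF, summed to 460, 183 and 317 RPM in HF+CR, against 81.0, 226 and 112 RPM in HF. Libraries on the LF diet were uneven as well. The epithelial list summed to 6686, 1181 and 2230 RPM in LF, and the pancreatic list to 348, 4.25 and 13.3 RPM in LF+CR. The neuronal list summed to 494, 721 and 530 RPM in LF, and the muscle list to 25.4, 150.5 and 81.8 RPM in LF. How far any of these lists bears on the other differences was not tested.

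**Figure D4:**
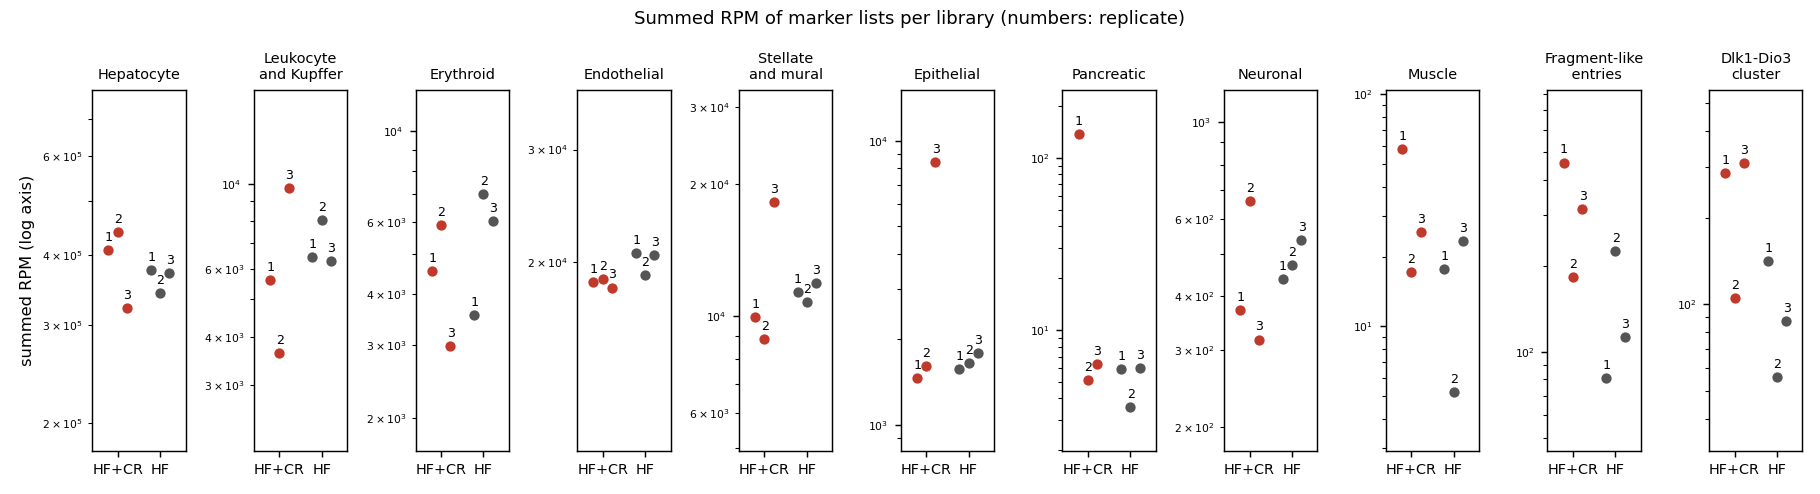
Summed RPM of each marker list and of the Dlk1-Dio3 cluster in each of 3 HF+CR (red) and 3 HF (grey) libraries, each panel on its own log axis, with the replicate number above each point. HF+CR 3 is high in the epithelial list at 8424 RPM, HF+CR 1 in the pancreatic list at 138 RPM and HF+CR 2 in the neuronal list at 660 RPM, while the HF libraries stay closer together in these 3 lists. Libraries on the LF diet, not drawn, were also uneven in these lists.

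Among the 6 libraries, leaving out HF+CR 3 moved the number of calls most. Without it, 22 of 351 miRNAs (6.27%) passed by limma with adjusted p of 0.0265 to 0.0484. Of these, 7 were higher (1.99%) and 15 lower (4.27%) in the remaining HF+CR pair, and 80 miRNAs (22.8%) were at an unadjusted p under 0.05. Without HF+CR 3 and LF 1 together, 25 (7.12%) passed. LF 1, like HF+CR 3, was the highest of its group in the epithelial and leukocyte lists. It summed to 6686 RPM in the epithelial list, against 1181 and 2230 RPM in LF 2 and 3. In the leukocyte and Kupffer cell list it summed to 8511 RPM, against 2528 and 4008 RPM. In 9 of the 22, HF+CR 3 lay beyond the HF range on the same side as the other HF+CR libraries: miR-592-5p, miR-1247-5p and both miR-1948 arms were higher, and miR-378b, miR-152-3p, miR-322-5p, miR-802-3p and miR-205-5p lower. miR-205-5p, an epithelial miRNA, was at 11.5, 8.64 and 56.2 RPM under HF+CR and 73.7, 103 and 63.2 RPM under HF (-2.06, SE 0.70, limma adjusted p = 0.17 with all libraries). In 9 others HF+CR 3 lay inside the HF range. miR-582-5p, from an intron of the phosphodiesterase gene Pde4d, was at 7.85, 14.1 and 293 RPM in HF+CR, against 176, 338 and 213 RPM in HF, so that 2 libraries were far below HF and 1 was at its level. miR-34a-5p, a p53 target that represses Sirt1, was at 1176, 596 and 2939.7 RPM under HF+CR and 2501, 3259 and 2341 RPM under HF, with the same split. The 3p arm of miR-582, miR-122-3p, miR-223-5p, miR-331-3p, miR-342-5p, miR-669o-3p and miR-669a-3p made up the rest of these 9. miR-669o-3p and miR-669a-3p have the same value in every library, so the 9 and the 22 each hold that measurement under both names. In the last 4, HF+CR 3 lay on the other side of the HF range: miR-124-3p, miR-155-5p, miR-212-3p and miR-455-5p. For miR-212-3p it was nearly level, at 44.1 RPM beside an HF maximum of 43.8 RPM. For miR-124-3p the margin rests on few reads, at 1.34 RPM beside an HF minimum of 1.85 RPM. miR-155-5p, induced in activated leukocytes, was at 59.7, 47.9 and 266 RPM in HF+CR, against 174, 205 and 142 RPM in HF. Leaving out HF 1 gave 3 calls (miR-103-3p, miR-107-3p and miR-592-5p), leaving out HF+CR 2 gave 1 (miR-107-3p), and leaving out HF+CR 1, HF 2 or HF 3 gave 0.

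The effect of CR differed between the diets for 3 of 351 miRNAs (0.855%), tested as the difference between HF+CR over HF and LF+CR over LF in the same limma fit, and for 48 (13.7%) at an unadjusted p under 0.05, 34 above 0 (9.69%) and 14 below (3.99%). Both arms of miR-1948 and miR-671-5p passed, all 3 with a higher value of the CR effect on HF. With size-factor rescaling the differences were lower, at 2.41 for miR-1948-3p, 2.33 for miR-1948-5p and 0.74 for miR-671-5p. The split of 34 and 14 was not worked out with rescaling. miR-1948-3p was at 89.7, 86.7 and 58.2 RPM in HF+CR, against 45.1, 33.8 and 34.99 RPM in HF. On the LF diet it was at 13.1, 19.4 and 18.98 RPM in LF+CR, against 44.2, 79.8 and 48.7 RPM in LF. The HF+CR libraries lay above all HF libraries and the LF+CR libraries below all LF libraries, with log2 fold changes of 1.01 (SE 0.25, adjusted p = 0.127) on HF and -1.66 (SE 0.25, adjusted p = 0.00225) on LF by limma. The difference was 2.67 (SE 0.35, 95% interval 1.92 to 3.42, limma adjusted p = 0.000482), and it passed in all 23 alternatives run, with values of 2.41 to 3.03 and adjusted p of 0.000213 to 0.033. miR-1948-5p was at 31.4, 19.04 and 12.7 RPM in HF+CR, against 12.6, 7.38 and 7.71 RPM in HF. On the LF diet it was at 2.39, 2.52 and 4.55 RPM in LF+CR, against 9.07, 15.8 and 7.64 RPM in LF. Its HF groups were barely apart, with HF+CR 3 at 12.7 RPM and HF 1 at 12.6 RPM, and its difference was 2.54 (SE 0.47, limma adjusted p = 0.0124). That call was lost without HF 3 (adjusted p = 0.0506), with size-factor rescaling (0.0755) and when limma was fitted to the compared groups only (0.103). In the exercise groups miR-1948-3p averaged 43.3 ± 4.17 RPM in HF+Ex and 90.7 ± 16.96 RPM in LF+Ex (SD, n = 3 each).

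miR-671-5p, which directs the breakdown of the circular RNA Cdr1as in mouse and human cells, was at 182, 136 and 133 RPM in HF+CR, against 118, 146 and 129.9 RPM in HF. On the LF diet it was at 53.5, 57.04 and 62.6 RPM in LF+CR, against 97.2, 104 and 108 RPM in LF. The HF groups overlapped, while every LF+CR library lay far below every LF library. The CR effect was 0.19 (SE 0.15) on HF and -0.83 (SE 0.15, limma adjusted p = 0.00886) on LF, and the difference was 1.02 (SE 0.22, limma adjusted p = 0.0306). The call was lost in 11 of 23 alternatives, among them leaving out HF+CR 1 (limma adjusted p = 0.0938), HF 1 (0.0892), HF 3 (0.0734), LF+CR 1 (0.109), LF+CR 2 (0.0884), LF 2 (0.0792) or LF 3 (0.0942) and size-factor rescaling (0.219). The number of miRNAs that passed was 9 without HF+CR 2, 5 without LF+CR 3 and 1 without HF 3.

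Over all tested miRNAs the CR effects on the diets were only weakly correlated. Without rescaling, most miRNAs lay below 0 on each diet, which by itself raises the share of equal signs. The comparisons share no library. The median log2 fold change was -0.05 for HF+CR over HF and -0.32 for LF+CR over LF. The shares above 0 were 43.3% and 24.8%, and 0 and 22 miRNAs (6.27%) passed by limma. Size factors were 0.809, 0.813 and 0.8797 in LF+CR, against 1.205, 0.891 and 1.08 in LF. In HF+CR they were 0.996, 0.906 and 1.285, against 1.012, 1.165 and 1.108 in HF. Every LF+CR factor was below every LF factor, so the values on the LF diet depend on the scaling. They and the shared signs were not worked out with rescaling. The sign was the same in 212 of 351 miRNAs (60.4%), 162 with both below 0 and 50 with both above; 102 were above 0 on HF and below 0 on LF, and 37 the reverse. The Pearson correlation across miRNAs was 0.21, a description over 351 miRNAs that are not independent. Within the lists, the Dlk1-Dio3 cluster had a median of 1.05 on HF and -0.48 on LF, the miR-17-92 cluster 0.17 and -0.25, the miR-378 family -0.77 and -0.35, the family of miR-148 and miR-152 -0.51 and 0.16, and miR-103 with miR-107 -0.63 and -0.46. No member of these 5 lists passed the test of the difference. On the LF diet the listed Dlk1-Dio3 members summed to 225, 101 and 107 RPM in LF+CR, against 295, 89.8 and 172 RPM in LF. These libraries interleaved, so the sign of that LF median is not a clear separation of the groups.

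**Figure D5:**
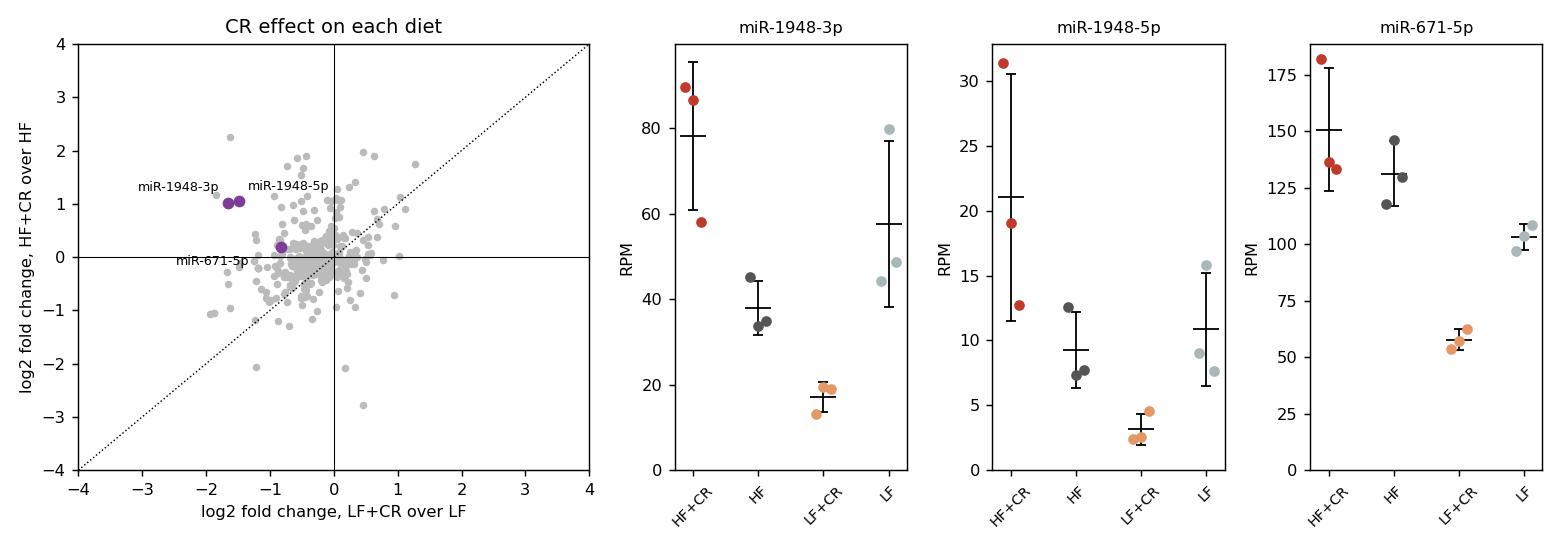
Left, log2 fold change of HF+CR over HF (vertical) against that of LF+CR over LF (horizontal) for 351 miRNAs, with the line of equal effect dotted and the 3 miRNAs that passed the test of the difference in purple. Right, RPM of these 3 in each library of HF+CR, HF, LF+CR and LF with mean and SD (n = 3): of these 4 groups, both miR-1948 arms average highest in HF+CR and lowest in LF+CR.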

How the data were processed

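The authors deposited, for each of 18 liver libraries, RPM values per mature miRNA, and the submitters' processing notes name the mm10 build, which is GRCm38. The aligner, the miRNA annotation, the counting rules and the treatment of reads that fit several miRNAs are not given in the sources available here. RPM is relative to other miRNAs, so a change in an abundant miRNA moves all others. All deposited values were whole multiples of the RPM of 1 read (100%, tolerance 0.001 reads), which gave the read depth, and the smallest listed value was 2 reads. Since depth differed between libraries, low miRNAs are less certain in the shallow ones.

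Groups were taken from the sample titles. miRNAs at 5 RPM or more in 3 or more of the 18 libraries were tested on log2(RPM + 1) with limma 3.58.1 (empirical Bayes with an intensity trend) in R 4.3.3, with 1 coefficient for each of the 6 groups and Benjamini-Hochberg adjustment over 351 miRNAs. A fold change on this scale understates the change of low miRNAs. The fit was tested on simulated data. Figures were drawn with matplotlib 3.10.9. miRNAs were named by rule: the 12 smallest p above 0 and the 12 below, those that passed the difference between diets, the 15 most abundant, those that passed with HF+CR 3 left out, and members of lists. The members and lists were chosen with earlier results of these data known. Gene positions come from RefSeq and host genes from GENCODE annotation on GRCm38. Alternatives covered the pseudocount, the filter, rescaling, the groups in the fit, the replicate block, the trend, identical miRNAs and left-out libraries.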

Additional observations from a re-analysis of the deposited data

Results flagged for a closer look

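The effect of CR differed between the diets for 3 miRNAs by a test of the difference itself, the CR effect on HF minus the CR effect on LF in 1 limma fit over all libraries. For miR-1948-3p the difference was 2.67 on the log2 scale, with HF+CR above HF in 3 of 3 libraries and LF+CR below LF in 3 of 3. For miR-1948-5p it was 2.54, with the same directions. For miR-671-5p it was 1.02, and there the HF+CR and HF libraries overlapped while all 3 LF+CR libraries lay below all 3 LF libraries. With 3 libraries a group, no single library was tested as an outlier.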

How the results depend on the processing

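Between HF+CR and HF the limma fit called 0 miRNAs, and the count was also 0 with a pseudocount of 5, without the filter, with a filter of 50 RPM, with rescaling, with the compared groups alone, without the intensity trend, with identical miRNAs counted once and with voom weights, the last chosen after seeing the data. It was 9 without the 3 shallowest libraries (HF+Ex 1, HF+CR 3 and HF+CR 1), 25 without HF+CR 3 and LF 1, and 0 to 22 when 1 library was left out, highest without HF+CR 3. Leaving both HF+CR 1 and HF+CR 3 out leaves 1 HF+CR library, assumed to vary like the other groups. For the difference between the diets the count of 3 became 1 with rescaling, 1 with the compared groups alone, 6 without the 3 shallowest libraries, 6 without HF+CR 3 and LF 1, and 1 to 9 when 1 library was left out. The deviations of HF+CR and HF samples with the same replicate number had a Pearson r of 0.209, 0.0202 and -0.198 for numbers 1, 2 and 3. Not every HF+CR library was closest to its own number. With 3 libraries a group, this check cannot settle whether the numbers pair the samples. A replicate block gave 0 calls between HF+CR and HF and 2 for the difference between the diets. The sign changes of miRNAs named in the text are given next, and the cause was not tested. Sign changes were not limited to these: without the 3 shallowest libraries, miR-136-3p was at -0.24, miR-125b-1-3p at -0.26 and let-7e-5p at -0.35, against 0.73, 0.51 and 0.32 with all libraries. There miR-92a-3p was at 0.26, miR-411-5p at 0.56, miR-127-3p at 0.54, miR-136-5p at 0.52 and miR-300-3p at 0.17, and miR-331-3p at -1.92. With rescaling, miR-21a-5p was at 0.035, miR-194-5p at 0.033, let-7a-5p at 0.020, miR-148a-3p at 0.031, miR-29b-3p at 0.021 and miR-26a-5p at 0.053. Without the 3 shallowest libraries, miR-29a-3p was at -0.030, miR-194-5p at 0.30, miR-29c-3p at 0.12 and let-7g-5p at 0.0042. Without HF+CR 3 and LF 1, miR-29a-3p was at -0.053, miR-194-5p at 0.20, miR-29c-3p at 0.078 and miR-29b-3p at 0.051. Leaving out 1 library gave -0.25 to 0.16 for miR-21a-5p, -0.14 to 0.10 for let-7a-5p, -0.22 to 0.22 for miR-101b-3p, -0.12 to 0.10 for miR-148a-3p, -0.35 to 0.0084 for let-7c-5p, -0.19 to 0.14 for miR-29b-3p, -0.16 to 0.12 for miR-26a-5p, -0.22 to 0.19 for miR-33-5p, -0.45 to 0.16 for miR-142-3p, -0.053 to 0.13 for miR-29a-3p, -0.18 to 0.20 for miR-194-5p and -0.21 to 0.078 for miR-29c-3p. A count test on recovered reads was not run. With 2.90 to 6.36 M reads a library, a miRNA at 5 RPM rests on few reads, and small changes of such miRNAs are not detectable at this depth.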
